A study of Mus musculus with 9 samples.

Results

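The expression of 9 genes for the recognition of double-stranded RNA and for STAT and IRF signalling downstream of it was followed in the hippocampus of mice in which Camta1, a calcium-responsive transcription factor, was knocked down. They were the RNA sensors Ifih1, Ddx58, Dhx58 and Tlr3, the transcription factors Stat2, Irf1, Irf7 and Irf9, and the kinase Eif2ak2. The genes were taken by their symbol from the deposited count table, which held all 9 of them among 31804 genes, and all 9 passed the filter on low counts. RNA was sequenced from dissected dorsal hippocampus of 9 male C57BL/6NCrl mice, an inbred strain, after a recombinant adeno-associated virus (rAAV) had been injected stereotaxically at 8 weeks of age and left for 3 weeks. The virus carried shRNA A against Camta1 in 3 mice, shRNA B against Camta1 in 3 mice, and a non-targeting control shRNA in 3 mice. All groups therefore carried a virus and a short hairpin RNA (shRNA), which is itself partly double-stranded, and no group without virus was analysed here. The infected tissue was picked by mCherry fluorescence, so a library can hold infected and uninfected cells of all types. In such bulk samples a change in the number of cells of a type and a change in RNA per cell cannot be told apart.

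Library totals lay between 29123744 and 38189288 reads, and levels are given as CPM, reads brought to a common library size with TMM factors, as mean ± SD of 3 libraries. Camta1 stood at 230, 174 and 254 CPM in the shRNA A libraries and 239, 145 and 266 CPM in the shRNA B libraries, against 427, 455 and 442 CPM in the control libraries. All 6 shRNA libraries lay below all 3 control libraries, with log2 differences of -1.01 ± 0.22 for shRNA A and -1.02 ± 0.22 for shRNA B. Neither passed the threshold of 0.05 in edgeR's quasi-likelihood test with Benjamini-Hochberg adjustment over 16438 genes (adjusted p = 0.388 and 0.0776), while DESeq2 gave adjusted p-values of 0.0152 and 0.00174. Without shRNA B replicate 2 both differences passed in edgeR (-1.01 for shRNA A and -0.81 for shRNA B, adjusted p = 0.015 and 0.0367), and with only the groups compared in the fit that of shRNA A did (adjusted p = 0.0128). Summed markers of neurons lay between 15580 and 17662 CPM in all libraries, and none of the 12 neuron markers was at 0. Control replicate 3 stood apart in markers of choroid plexus, where they summed to 1058 CPM; the other libraries had sums of 25.6 to 47.8 CPM, and results that change without it are given below.

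As background, cells recognise double-stranded RNA in the cytosol through the RIG-I-like helicases and in endosomes through TLR3. The helicases signal through the mitochondrial adaptor MAVS, and TLR3 through TRIF, to kinases that activate IRF3 and IRF7, which switch on type I interferon genes. Interferon then acts through its receptor to assemble ISGF3, a transcription factor complex with STAT2 and IRF9 that binds the interferon-stimulated response element. Most of the genes described here are both parts of this circuit and targets of it, and in the brain microglia, astrocytes and neurons can all respond to interferon.

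The promoter windows of the members are shown because most of these genes were higher together with shRNA B in the values that follow. Windows of RefSeq, from 250 bases before to 50 bases after each annotated start on build GRCm38.p6, were present for 8 of the 9 genes, all but Dhx58. The counts were made on mm9, so these positions are not those of the deposited files. A core of the interferon-stimulated response element, searched as GAAA, then 2 bases of any kind, then GAAA on both strands, lay in the windows of Ifih1, Ddx58, Stat2 and Eif2ak2, that is in 4 of 8 genes, and in those of 1079 of 27025 genes overall (3.99%). All 4 also held the longer form with a C after the second GAAA, which 0.944% of genes hold and which overlaps the shorter form by construction. The stretches with the match in capitals, written 5′ to 3′ on the strand of the gene, were as follows.
Ifih1, chr2:62646206-62646235, minus strand: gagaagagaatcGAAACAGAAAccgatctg
Ddx58, chr4:40239804-40239833, minus strand: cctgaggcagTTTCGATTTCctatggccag
Stat2, chr10:128270266-128270295, plus strand: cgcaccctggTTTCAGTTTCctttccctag
Eif2ak2, chr17:78882535-78882564, minus strand: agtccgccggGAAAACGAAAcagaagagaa
Counting the annotated start as base 1, the match lay at bases 33 to 42 in Ifih1, 3 to 12 in Ddx58 and 19 to 28 in Eif2ak2, inside the annotated transcript. In Stat2 it lay upstream, at bases -222 to -213. In Ddx58 and Stat2 the capitals read TTTC because the match is on the opposite strand.

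A gamma-activated site, an element of the response to interferon gamma, was searched as TTCNNNGAA, which reads alike on both strands, and lay in the windows of Irf1 and Eif2ak2, that is in 2 of 8 genes, against 9.55% of all genes.
Irf1, chr11:53769913-53769942, plus strand: aacagcctgatTTCCCCGAAatgatgaggc
Eif2ak2, chr17:78882732-78882761, minus strand: cctgcagagctTTCCCAGAAtggaagccag
Eif2ak2 was the only one of the 8 genes with both elements, and Irf1 had a gamma-activated site without the paired GAAA form. The windows of Irf7, Irf9 and Tlr3 held neither string, which says only that these letters are not in these windows. The 120 bases before the annotated start of Irf7, the gene with the highest fold difference below, are given for comparison, with no base in capitals.
Irf7, chr7:141266425-141266544, minus strand: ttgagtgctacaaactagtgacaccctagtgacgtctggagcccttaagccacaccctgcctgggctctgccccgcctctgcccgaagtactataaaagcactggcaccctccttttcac

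With shRNA B, 5 of the 9 genes were called higher than control at the adjusted threshold of 0.05. They were the cytosolic sensors Ifih1 and Dhx58, the ISGF3 subunits Stat2 and Irf9, and the kinase Eif2ak2. Of all 16438 genes tested, 0.779% were called higher in this comparison and 1.02% were called in either direction. Ddx58 and Irf7 lay above control in every shRNA B library and did not pass the threshold, while Tlr3 and Irf1 differed least. The median log2 difference of the 9 genes was 1.18, against 0.00 over all genes. With shRNA A, 0 of 9 genes passed, against 0.0243% of all genes, and the median log2 difference was 0.24. At an unadjusted p under 0.05, edgeR gave 7 of 9 genes with shRNA B and 0 of 9 with shRNA A, where 12.8% and 6.9% of all genes lay. DESeq2 called 7 of 9 with shRNA B and 0 of 9 with shRNA A, where it called 1.42% and 0.116% of all genes higher. Both shRNAs were compared with the same 3 control libraries, so their results are not independent of each other. The 9 genes were chosen with earlier results of these data known, so their counts are a description and not independent evidence.

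**Figure D1:**
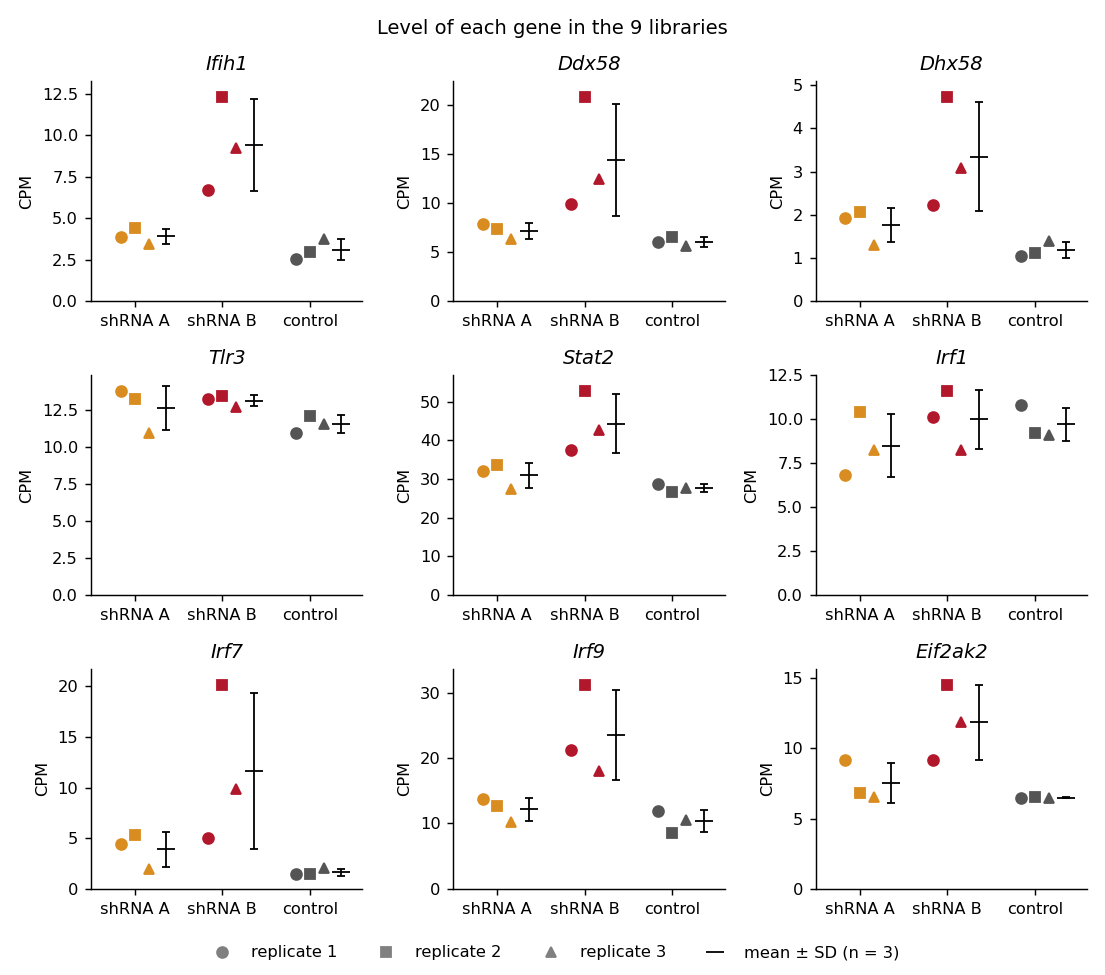
Level of each of the 9 genes in every library in CPM, one panel per gene with its own axis starting at 0; points are libraries, shRNA A, shRNA B and control from left to right, and each horizontal line with its bar is the mean ± SD of a group. All 3 shRNA B libraries lie above all 3 control libraries in every panel but that of Irf1.

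Ifih1 (ENSMUSG00000026896, chromosome 2) encodes MDA5, the sensor of long double-stranded RNA. It stood at 3.87, 4.41 and 3.47 CPM in the shRNA A libraries and 6.72, 12.3 and 9.24 CPM in the shRNA B libraries, against 2.54, 2.99 and 3.78 CPM in the control libraries. The shRNA B libraries lay above all others, and the shRNA A libraries overlapped with control. With shRNA B it averaged 9.42 ± 2.79 CPM, against 3.1 ± 0.625 CPM in control (SD, n = 3 each), a 3.02-fold level and a log2 difference of 1.59 ± 0.22 (SE; edgeR adjusted p = 0.0109). This was the lowest adjusted p among the 9 genes. The call was lost without control replicate 1 (adjusted p = 0.0713) and without control replicate 2 (adjusted p = 0.0618), in edgeR fits on 8 libraries. For shRNA A the log2 difference was 0.33 ± 0.23 (edgeR adjusted p = 0.801).

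Ddx58 (ENSMUSG00000040296, chromosome 4) encodes RIG-I, which binds short double-stranded RNA with a 5′ triphosphate. It stood at 7.86, 7.43 and 6.32 CPM in the shRNA A libraries and 9.93, 20.8 and 12.5 CPM in the shRNA B libraries, against 6.00, 6.56 and 5.60 CPM in the control libraries. All shRNA B libraries were above all others, and replicate 2 of shRNA B was well above the other libraries. The log2 difference of shRNA B from control was 1.25 ± 0.24, which narrowly missed the threshold (edgeR adjusted p = 0.0502). It passed without shRNA B replicate 1 (adjusted p = 0.0051) and without shRNA B replicate 2, where the difference shrank to 0.88 (edgeR adjusted p = 0.0227). For shRNA A the log2 difference was 0.25 ± 0.25 (edgeR adjusted p = 0.864).

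Dhx58 (ENSMUSG00000017830, chromosome 11) encodes LGP2, a helicase without a signalling domain of its own that tunes the other sensors. It stood at 1.92, 2.06 and 1.31 CPM in the shRNA A libraries and 2.22, 4.72 and 3.09 CPM in the shRNA B libraries, against 1.05, 1.11 and 1.39 CPM in the control libraries. It was the lowest of the 9 genes in counts, with 31 to 44 reads per control library, and its shRNA B libraries again lay above all others. The log2 difference of shRNA B from control was 1.49 ± 0.28 (edgeR adjusted p = 0.0323), and that of shRNA A was 0.57 ± 0.29 (edgeR adjusted p = 0.746). The call with shRNA B was lost without control replicate 1, 2 or 3 (edgeR adjusted p = 0.153, 0.134 and 0.0732), without shRNA A replicate 1 (0.0555) and without shRNA B replicate 2 (0.0906). It was also lost by limma-voom (adjusted p = 0.0695). An antisense gene, Dhx58os, shares 141 exon bases with it on the opposite strand, and reads of the pair cannot be told apart in libraries that do not keep the strand.

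Tlr3 (ENSMUSG00000031639, chromosome 8), the endosomal receptor for double-stranded RNA, differed little. It stood at 13.7, 13.2 and 10.9 CPM in the shRNA A libraries and 13.2, 13.4 and 12.7 CPM in the shRNA B libraries, against 10.9, 12.1 and 11.5 CPM in the control libraries. The shRNA B libraries lay just above control and within the range of shRNA A. The log2 differences were 0.13 ± 0.097 for shRNA A and 0.19 ± 0.097 for shRNA B (edgeR adjusted p = 0.814 and 0.449). Among the 4 sensors the cytosolic helicases thus had log2 differences of 1.25 to 1.59 with shRNA B, and the endosomal receptor one of 0.19; the difference between sensors was not tested. Tlr3 shares 381 exon bases with the antisense gene Gm45542.

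Stat2 (ENSMUSG00000040033, chromosome 10), the subunit that carries the activating domain of ISGF3, had the highest read counts of the set. It stood at 32.0, 33.6 and 27.4 CPM in the shRNA A libraries and 37.6, 52.7 and 42.7 CPM in the shRNA B libraries, against 28.8, 26.7 and 27.7 CPM in the control libraries. The shRNA B libraries lay above all others. With shRNA B it averaged 44.3 ± 7.68 CPM, against 27.7 ± 1.03 CPM in control (SD, n = 3 each), a log2 difference of 0.67 ± 0.11 (SE; edgeR adjusted p = 0.0239). Its fold of 1.60 was the lowest among the 5 called genes. The call was lost without control replicate 1, 2 or 3 (edgeR adjusted p = 0.101, 0.106 and 0.0732). For shRNA A the log2 difference was 0.16 ± 0.12 (edgeR adjusted p = 0.811).

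Irf9 (ENSMUSG00000002325, chromosome 14) is the DNA-binding subunit of ISGF3. It stood at 13.7, 12.6 and 10.2 CPM in the shRNA A libraries and 21.3, 31.2 and 17.99 CPM in the shRNA B libraries, against 11.9, 8.56 and 10.5 CPM in the control libraries. The shRNA B libraries lay above all others, and shRNA A overlapped with control. The log2 difference of shRNA B from control was 1.18 ± 0.21 (edgeR adjusted p = 0.0379), a 2.27-fold level, and that of shRNA A was 0.24 ± 0.21 (edgeR adjusted p = 0.853). The call with shRNA B was lost without control replicate 1, 2 or 3 (edgeR adjusted p = 0.121, 0.138 and 0.0958) and without shRNA A replicate 1, 2 or 3 (0.0637, 0.0705 and 0.0555). Irf9 shares 123 exon bases with Rnf31 on the same strand, and the sources used here do not say how such reads were counted.

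Irf7 (ENSMUSG00000025498, chromosome 7), the inducible factor that amplifies interferon transcription, had the highest fold of the 9 genes and the widest spread. It stood at 4.41, 5.31 and 1.96 CPM in the shRNA A libraries and 5.02, 20.1 and 9.85 CPM in the shRNA B libraries, against 1.42, 1.46 and 2.05 CPM in the control libraries. These levels rest on 138, 165 and 60 reads for shRNA A, 194, 640 and 306 reads for shRNA B, and 42, 46 and 65 reads for control. Replicates 1 and 2 of shRNA A lay above control and replicate 3 within it, while replicate 1 of shRNA B lay within the range of shRNA A. The log2 difference was 2.81 ± 0.60 for shRNA B (edgeR adjusted p = 0.0977), a 7.02-fold level, and 1.24 ± 0.63 for shRNA A (edgeR adjusted p = 0.75). Its coefficient of variation between libraries was 44.4% with shRNA A and 66.2% with shRNA B, against 21.2% in control. Without shRNA B replicate 1 the difference passed (edgeR adjusted p = 0.0228), and without shRNA B replicate 2 it was 2.16 on the log2 scale.

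Irf1 (ENSMUSG00000018899, chromosome 11), a factor best known for its response to interferon gamma, showed no such pattern. It stood at 6.84, 10.4 and 8.28 CPM in the shRNA A libraries and 10.1, 11.6 and 8.24 CPM in the shRNA B libraries, against 10.8, 9.20 and 9.13 CPM in the control libraries. All 3 groups overlapped. The log2 differences were -0.19 ± 0.16 for shRNA A and 0.04 ± 0.16 for shRNA B (edgeR adjusted p = 0.833 and 0.948). The sign for shRNA B turned without control replicate 3 (-0.01) and without shRNA B replicate 2 (-0.08). Irf1 shares 135 exon bases with Gm17334 on the opposite strand.

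Eif2ak2 (ENSMUSG00000024079, chromosome 17) encodes PKR, the kinase that blocks translation through eIF2 alpha once it binds double-stranded RNA. It stood at 9.14, 6.82 and 6.55 CPM in the shRNA A libraries and 9.18, 14.5 and 11.8 CPM in the shRNA B libraries, against 6.48, 6.53 and 6.49 CPM in the control libraries. It was the only member for which all 6 shRNA libraries lay above all 3 control libraries, which held for 2.51% of all genes. Replicates 2 and 3 of shRNA A were nearly level with control, and the control libraries lay close together (6.50 ± 0.0252 CPM, SD, n = 3). The log2 difference was 0.86 ± 0.17 for shRNA B (edgeR adjusted p = 0.0369) and 0.21 ± 0.17 for shRNA A (edgeR adjusted p = 0.83). The call with shRNA B was lost without control replicate 1, 2 or 3 (edgeR adjusted p = 0.158, 0.138 and 0.103), shRNA A replicate 2 (0.059), shRNA B replicate 2 (0.114) and shRNA B replicate 3 (0.0633). Eif2ak2 shares 174 exon bases with the noncoding gene Gm26637 on the opposite strand.

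**Figure D2:**
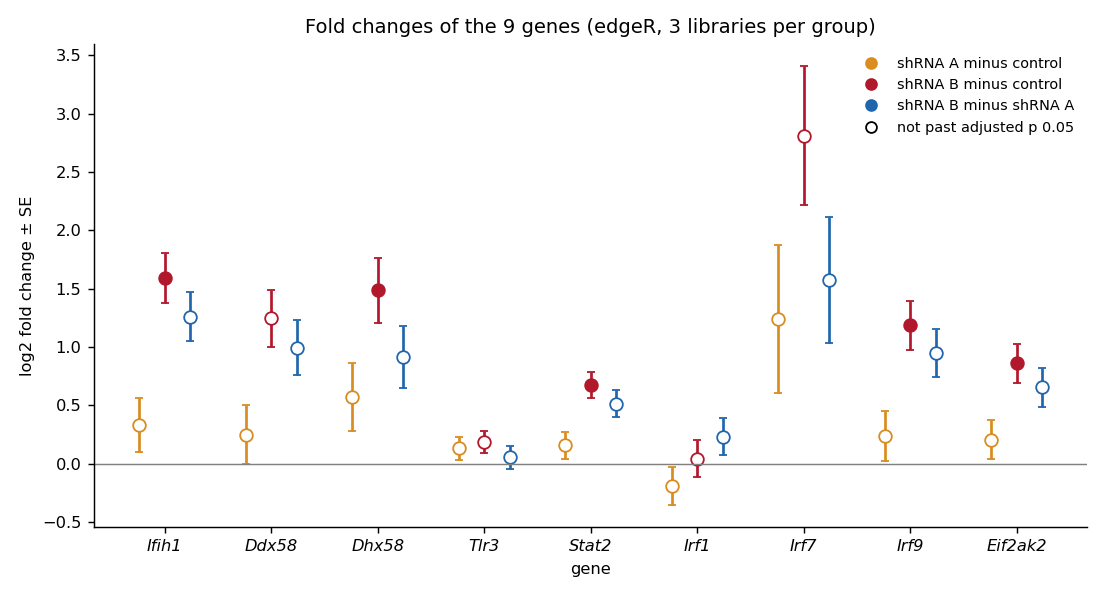
Log2 difference from control of each of the 9 genes for shRNA A and for shRNA B, and of shRNA B from shRNA A, with bars of 1 SE from edgeR; open points did not pass the adjusted threshold of 0.05. Ifih1, Dhx58, Stat2, Irf9 and Eif2ak2 pass with shRNA B, and no gene passes with shRNA A or between the shRNAs.

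Across the 9 genes, all 3 shRNA B libraries lay above all 3 control libraries for 8 genes, all but Irf1, where 9.27% of all genes did so. All 3 shRNA A libraries lay above control for Eif2ak2 alone, against 6.84% of all genes. The libraries of a group differed in a similar way for most genes. Replicate 2 of shRNA B was the highest of its group for 9 of 9 genes, and replicate 3 of shRNA A was the lowest of its group for 8 of 9. Relative to the control mean, the median of the 9 genes was 0.38, 0.30 and 0.01 on the log2 scale in the shRNA A libraries and 0.71, 1.60 and 0.86 in the shRNA B libraries, against -0.01, -0.05 and 0.00 in the control libraries. Replicate 3 of shRNA A was thus at the control level, and replicates 1 and 2 lay above all control libraries for 8 of 9 genes each. The matching shares of all genes were not computed for these counts of single libraries, so the counts describe the members alone. Camta1, at 230, 174 and 254 CPM in the shRNA A libraries and 239, 145 and 266 CPM in the shRNA B libraries, did not order the libraries within a group as the members did throughout. Replicate 2 of shRNA B had the least Camta1 and the highest median of its group, but replicate 3 of shRNA B had more Camta1 and a higher median than replicate 1. In shRNA A, replicate 3 had the most Camta1 and the lowest median of its group. Replicate 2 of shRNA A had less Camta1 and a lower median than replicate 1. Whether the levels are related was not tested. Without replicate 2 of shRNA B the median log2 difference of the 9 genes was 0.88 (1.18 with it). In that fit 4 of the 9 were called, and 62 of all genes, against 167 of all genes with it. With the shRNA B and control libraries alone in the fit, 42 of all genes were called and none of the 5 called members passed. Their edgeR adjusted p-values were 0.0586 for Ifih1, 0.0613 for Stat2, 0.0663 for Eif2ak2, 0.0774 for Dhx58 and 0.111 for Irf9. Eif2ak2 was also lost by limma-voom (adjusted p = 0.0615), and Irf9 without the filter on low counts (edgeR adjusted p = 0.0786).

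**Figure D3:**
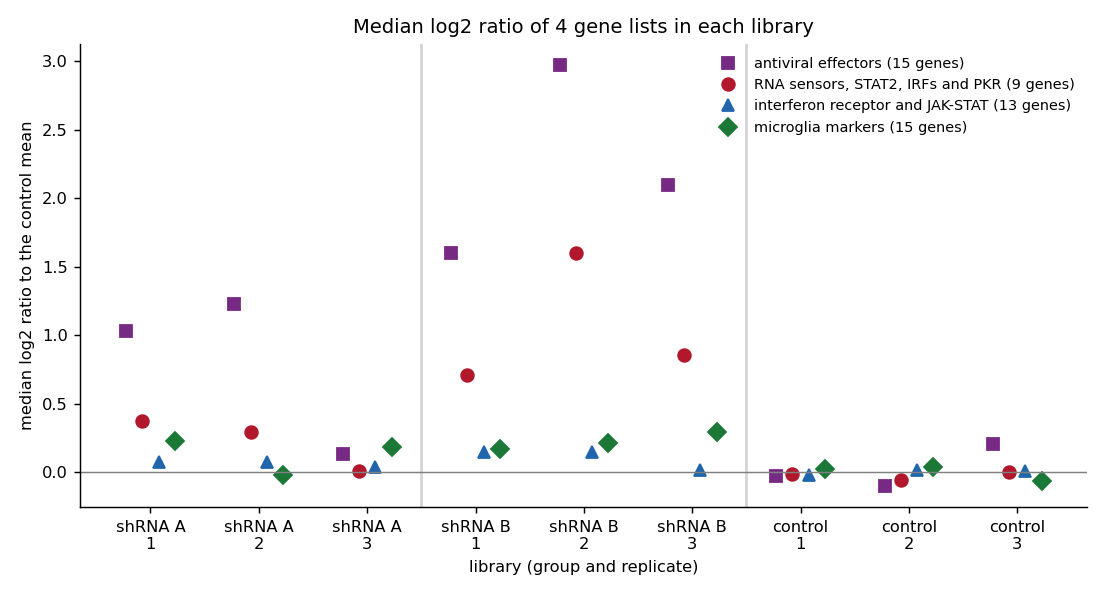
Log2 ratio to the control mean in each of the 9 libraries as medians of the 9 genes, of 15 antiviral effectors, of 13 interferon receptor and JAK-STAT genes and of 15 microglia markers; libraries run from shRNA A through shRNA B to control. The members and the antiviral effectors are highest in replicate 2 of shRNA B and near 0 in replicate 3 of shRNA A, while the interferon receptor and JAK-STAT list stays between 0.02 and 0.15 in the shRNA libraries.

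When shRNA B was compared with shRNA A, all 9 genes had a positive log2 difference, and for 6 genes (Ifih1, Ddx58, Dhx58, Stat2, Irf9 and Eif2ak2) all shRNA B libraries lay above all shRNA A libraries, against 7.29% of all genes. No gene of the 16438 passed the threshold here in edgeR's quasi-likelihood test, and so 0 of 9. At an unadjusted p under 0.05 there were 7 of the 9, against 9.34% of all genes, and DESeq2 called 5 of the 9, where it called 0.459% of all genes higher. The largest difference with a small error was that of Ifih1, 1.26 ± 0.21 on the log2 scale (edgeR adjusted p = 0.101), followed by Ddx58 with 1.0 ± 0.24 and Irf9 with 0.95 ± 0.21 (edgeR adjusted p = 0.238 and 0.199). Irf7 differed by 1.57 ± 0.54 (edgeR adjusted p = 0.421), with overlapping libraries. Tlr3 differed by 0.06 ± 0.096 and Irf1 by 0.23 ± 0.16, which leaves room for small differences in either. Of the 9, Ifih1, Ddx58 and Stat2, passed without shRNA B replicate 1 (edgeR adjusted p = 0.0163, 0.0357 and 0.0401), and Ifih1 and Irf9 without shRNA B replicate 3 (0.0469 and 0.0342).

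For the mean of both shRNAs minus control, edgeR called 0 of the 9 genes, against 0.0973% of all genes, and 7 of 9 lay at an unadjusted p under 0.05, against 10.4%. DESeq2 called 7 of the 9, where it called 0.874% of genes higher. The largest log2 differences were 2.03 ± 0.56 for Irf7, 1.03 ± 0.26 for Dhx58 and 0.96 ± 0.20 for Ifih1 (edgeR adjusted p = 0.274, 0.168 and 0.11). The authors' deposited table gives a likelihood ratio test over the 3 groups. In it, 7 of the 9 genes had adjusted p-values from 7.24e-11 for Ifih1 to 0.00133 for Irf7, while Tlr3 and Irf1 had 0.828 and 0.884. Of the 15093 genes with an adjusted p in the authors' deposited table, 379 (2.51%) were under 0.05.

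Levels of different genes were compared per kilobase of exon, with lengths from GENCODE M21 on GRCm38, which is not the annotation behind the counts. In control libraries Stat2 was highest at 4.68 ± 0.174 CPM per kb, followed by Irf1 at 2.44 ± 0.240, Tlr3 at 2.21 ± 0.116 and Irf9 at 1.92 ± 0.309. Eif2ak2 followed at 1.27 CPM per kb and Ddx58 at 0.859, and Irf7, Ifih1 and Dhx58 were lowest at 0.436, 0.380 and 0.362. In control, the libraries of Irf1 and Tlr3 overlapped, as did those of Tlr3 and Irf9, of Irf7 and Ifih1, and of Ifih1 and Dhx58, while the other neighbours in this order did not. With shRNA B the order was Stat2, Irf9, Irf7, Tlr3, Irf1, Eif2ak2, Ddx58, Ifih1 and Dhx58. Irf7 took place 3 at 3.09 CPM per kb with shRNA B, against place 7 in control, and Irf1 place 5 at 2.51 CPM per kb, against place 2. These places rest on the length used: with the longest transcript, Irf7 took place 5 with shRNA B, against place 8 in control, and Irf1 place 3, against place 2. With shRNA B and exon length, the libraries of every neighbouring pair but Stat2 and Irf9 overlapped. With the longest transcript, neighbours in the control order changed places too (Tlr3 with Irf9, Eif2ak2 with Ddx58, and Irf7 with Ifih1).

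Other genes of the pathway were read from lists of fixed membership. Upstream, a list of 13 genes of sensor signalling held adaptors and kinases such as Mavs, Ticam1 and Tbk1, ubiquitin ligases, the factor Irf3 and the DNA-sensing genes Mb21d1 and Tmem173. Of these 13, Trim25 alone was called higher with shRNA B, against 0.779% of all genes, and 11 of 13 had a positive log2 difference. Trim25 ubiquitinates RIG-I, and stood at 8.20 ± 0.567 CPM with shRNA A and 13.5 ± 2.26 CPM with shRNA B, against 7.45 ± 0.524 CPM in control (SD, n = 3 each; log2 difference with shRNA B 0.85 ± 0.12, edgeR adjusted p = 0.0109). The median log2 difference of the 13 with shRNA B was 0.22. Mavs, the adaptor of the cytosolic sensors, differed by 0.24 on the log2 scale (edgeR adjusted p = 0.377).

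Among 16 other pattern receptors tested, Ddx60, Ifi204, Tlr2 and Zbp1 were called higher with shRNA B, with a list median of 0.35. A positive log2 difference was seen in 13 of 16. Ddx60 is a helicase that acts beside the RIG-I-like sensors, Ifi204 senses DNA, Tlr2 bacterial lipoproteins, and Zbp1 left-handed nucleic acid helices. Ddx60 differed by 2.77 ± 0.42, Ifi204 by 3.20 ± 0.49 and Tlr2 by 1.43 ± 0.27 on the log2 scale (edgeR adjusted p = 0.021, 0.0167 and 0.0299). Zbp1 passed too (edgeR adjusted p = 0.0443), on 12, 25 and 1 reads in the shRNA A libraries, 31, 65 and 44 in the shRNA B libraries, and 3, 1 and 1 in the control libraries.

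In the receptor and JAK-STAT list, 0 of 13 genes passed with shRNA B in edgeR, and the median log2 difference was 0.06. The receptor chains Ifnar1 and Ifnar2 differed by -0.02 and 0.06, and the kinases Jak1 and Tyk2 by 0.04 and 0.22 on the log2 scale (edgeR adjusted p = 0.948, 0.839, 0.839 and 0.371). The small value of Ifnar1 changed sign when libraries were scaled by size alone and without shRNA B replicate 3. A list of 9 other IRF genes included Irf3, Irf8 and 3 genes for proteins that bind IRF2, and it shares Irf3 with the list of sensor signalling. Of these 9, Irf8, a factor of microglia and other myeloid cells, rose by 0.72 ± 0.12 on the log2 scale with shRNA B (edgeR adjusted p = 0.0217), and Irf3, which the sensors activate without new synthesis, differed by 0.26 (edgeR adjusted p = 0.266). The median of these 9 was 0.12.

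The interferon genes themselves had no reads. Of 11 listed, 8 had a row in the table (Ifnb1, Ifna2, Ifna4, Ifnk, Ifne, Ifng, Ifnl2 and Ifnl3), and each had 0 counts in all 9 libraries. A count of 0 allows up to 0.0786 to 0.103 CPM, depending on the library and for counting error only, and near-identical interferon alpha genes could lose reads that map to several of them. The tissue was taken 3 weeks after injection, and earlier times were not analysed here.

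Among 17 negative regulators, Usp18, which blocks the interferon receptor, and Trim21 were called higher with shRNA B. They differed by 2.83 ± 0.49 and 1.01 ± 0.17 on the log2 scale (edgeR adjusted p = 0.0391 and 0.0237). The list median was 0.08. Of 12 eIF2 kinases and stress targets other than Eif2ak2, 0 passed in edgeR, with a median of 0.03. Of 12 other proteins that bind double-stranded RNA, Zc3hav1, an antiviral zinc finger protein, rose by 0.87 ± 0.13 on the log2 scale with shRNA B (edgeR adjusted p = 0.0146), Adar, which edits double-stranded RNA, differed by -0.04 (edgeR adjusted p = 0.84), and the median was 0.00.

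Downstream, 11 of 15 antiviral effectors tested were called higher with shRNA B, with a median of 2.31 over the list. So were 7 of 13 interferon gamma and MHC genes, with a median of 1.45, against 0.779% of all genes. All 15 and all 13 had a positive log2 difference. The called effectors were Ifit1, Ifit2, Ifit3, Mx1, Mx2, Oasl2, Ifi44, Bst2, Rtp4, Xaf1 and Parp14. The called genes of the second list were B2m, H2-K1, H2-D1, Tap1, Psmb8, Gbp3 and Irgm1. The median of the effectors per library was 1.03, 1.23 and 0.13 in the shRNA A libraries, 1.60, 2.97 and 2.10 in the shRNA B libraries, against -0.03, -0.10 and 0.20 in control libraries, on the log2 scale relative to the control mean. Replicate 3 of shRNA A was the lowest shRNA library and replicate 2 of shRNA B the highest, as for the 9 members. With shRNA A, 0 genes of these lists passed in edgeR, but all 15 and all 13 again had a positive log2 difference. The medians with shRNA A were 0.90 for the effectors and 0.56 for the second list. For the mean of both shRNAs minus control, B2m alone of these lists was called (edgeR adjusted p = 0.0214), against 0.0973% of all genes. The lists were chosen with earlier results of these data known, so their counts are a description and not independent evidence of a direction.

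Many calls of the 27 genes of these lists called with shRNA B were lost when 1 library was left out, as for the members. The fit then has 1 library less, and no log2 difference of the 27 changed sign in any alternative. Of the 27, 1 was called without control replicate 1, 2 without control replicate 2 and 1 without control replicate 3. The 9 genes of sensing and signalling among them (Trim25, Ddx60, Ifi204, Tlr2, Zbp1, Irf8, Usp18, Trim21 and Zc3hav1) had edgeR adjusted p-values of up to 0.183 without control replicate 1, and Trim25 alone of these 9 was called without control replicate 2. Between 17 and 20 were called when a shRNA A library was left out, and 27, 19 and 17 without shRNA B replicates 1, 2 and 3. B2m, which encodes the MHC class I light chain, stayed past the threshold in all 17 alternatives tried. With only the groups compared in the fit 6 of the 27 were called, without the filter on low counts 15, and by limma-voom 17, where Usp18, Tlr2 and Zbp1 were among those lost. In the table, 167 genes in all were called with shRNA B, and 13 to 217 when 1 library was left out.

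**Figure D4:**
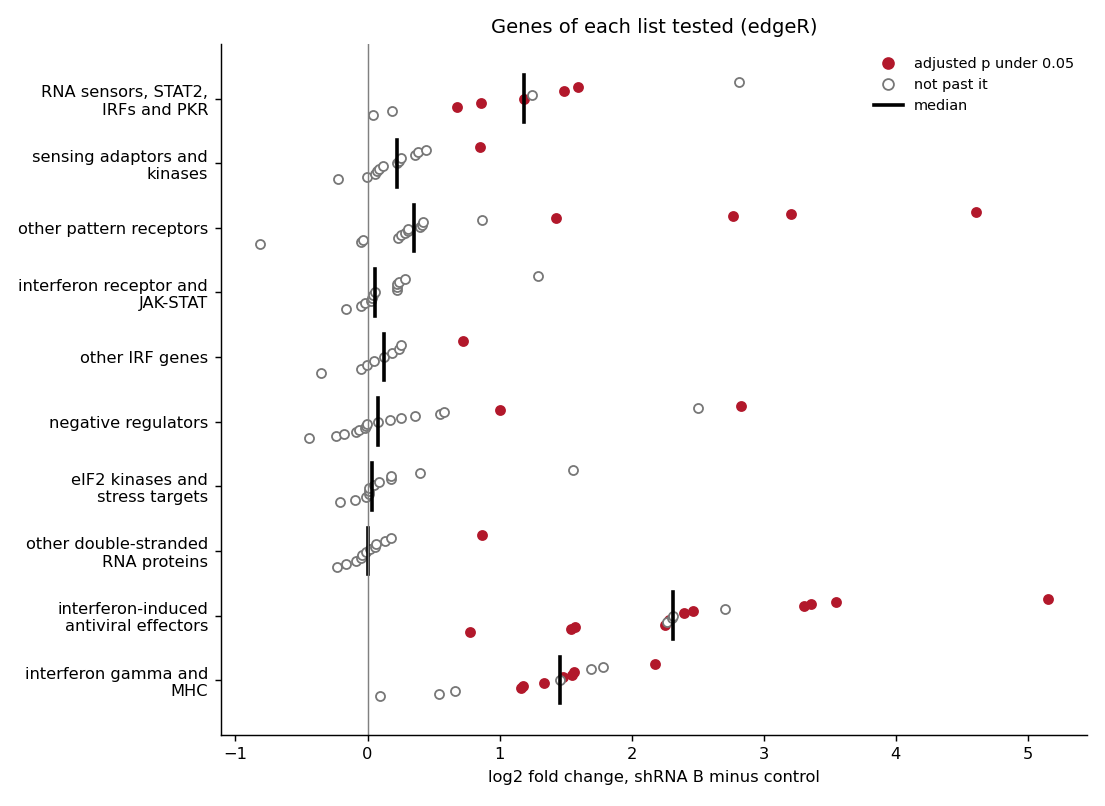
Log2 difference of shRNA B from control of every tested gene in the 9 genes and in each pathway list; filled points pass the adjusted threshold of 0.05, open points do not, and black lines are list medians. With shRNA B the medians are 2.31 for antiviral effectors and 1.45 for interferon gamma and MHC genes, and 0.00 to 0.35 for the other pathway lists.

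By likeness over all 9 libraries, the 8 non-member genes closest to the median profile of the 9 members included Uba7, Ifi35, Psmb8, Vim, Rnf213, Trim21 and Lrdd. Likeness was the root mean square difference in log2 ratio to the control mean, and ran from 0.111 for Uba7 to 0.167 for Lrdd among 14511 candidates with at least 1 CPM. Uba7 is the activating enzyme for the ubiquitin-like ISG15, Psmb8 an immunoproteasome subunit, and Vim the intermediate filament of astrocytes and other non-neuronal cells. With shRNA B their log2 differences were 1.12 for Uba7, 1.17 for Psmb8 and 1.13 for Vim. They were picked by their levels in these libraries, so the likeness is a description. The same 8 genes came out when libraries were scaled by DESeq2 size factors or by size alone.

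Markers of cell types were read in the same libraries. Relative to the control mean, the median of 15 microglia markers was 0.23, -0.02 and 0.18 on the log2 scale with shRNA A. With shRNA B it was 0.17, 0.22 and 0.30. Among shRNA libraries it was lowest in replicate 2 of shRNA A and highest in replicate 3 of shRNA B. The median of the 9 members was lowest in replicate 3 of shRNA A and highest in replicate 2 of shRNA B. Of the 15 microglia markers, 14 had a positive log2 difference with shRNA A and 13 with shRNA B. None passed with shRNA A, and C1qa, C1qb and C1qc passed with shRNA B (0.66, 0.62 and 0.61, edgeR adjusted p = 0.0109, 0.0187 and 0.00855). In shRNA B replicates 1, 2 and 3, C1qa stood at 71.6, 89.4 and 85.0 CPM and C1qb at 52.9, 71.6 and 63.0 CPM. C1qc stood at 64.9, 80.2 and 77.7 CPM there, so these 3 ordered the shRNA B libraries as the median of the 9 members did. In shRNA A, C1qb was lowest in replicate 3 like that median, while C1qa and C1qc were lowest in replicate 2. C1qc passed in all 17 alternatives, C1qa lost its call without control replicate 1 or 3 (edgeR adjusted p = 0.0584 and 0.0529), and C1qb without control replicate 1, 2 or 3 (0.0907, 0.0678 and 0.0662). The summed markers came to 631 to 719 CPM with shRNA A and 713 to 797 CPM with shRNA B, against 597 to 638 CPM in control libraries, a list median of 0.23 on the log2 scale with shRNA B. Among markers of lymphocytes, 0 of 15 had enough reads to be tested. Their sum came to 0.735, 1.06 and 0.491 CPM in the shRNA A libraries. It came to 0.776, 2.04 and 1.51 CPM in the shRNA B libraries, against 0.712, 0.796 and 0.630 CPM in the control libraries. The sum ordered the shRNA B libraries as the median of the 9 members did, and it was likewise lowest in replicate 3 of shRNA A. The T cell gene Cd8a had 1, 0 and 0 reads in the shRNA A libraries, 0, 9 and 5 in the shRNA B libraries, and 0, 0 and 2 in the control libraries. Cd8b1 had 0, 2 and 0 reads with shRNA A, 0, 5 and 9 with shRNA B, and 1, 0 and 2 in control. Gzmb had 0, 2 and 0 reads with shRNA A, 0, 4 and 3 with shRNA B, and 0, 1 and 0 in control. Cd3e, a chain of the T cell receptor complex, had 2, 3 and 0 reads in the shRNA A libraries, 1, 3 and 2 in the shRNA B libraries, and 1, 1 and 0 in the control libraries. Cd4, with the most reads of this list, had 9, 4 and 9 with shRNA A, 10, 10 and 9 with shRNA B, and 9, 11 and 5 in control. Klrb1c had 0, 0 and 0 reads with shRNA A, 0, 1 and 0 with shRNA B, and 0, 2 and 2 in control. These genes were named after their values were seen. The 9 blood myeloid markers in the table summed to 7.5 to 9.36 CPM with shRNA A and 7.33 to 9.04 CPM with shRNA B, against 7.53 to 9.67 CPM in control libraries, and the 3 ranges overlapped. The part of these cells in the differences of the 9 genes was not tested.

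Of the remaining markers, Aldh1l1 of 10 astrocyte markers was called higher with shRNA B (0.47, edgeR adjusted p = 0.0137). Slc6a13 of 8 meningeal markers was called lower (-0.98, edgeR adjusted p = 0.0376). Aldh1l1 lost its call without control replicate 1 or 3 (edgeR adjusted p = 0.0713 and 0.0544), and Slc6a13 in 8 of the 9 fits that left out a library, all but that without shRNA B replicate 1. The list medians with shRNA B were -0.04 for astrocytes, -0.09 for neurons, -0.05 for endothelial and mural cells, 0.35 for oligodendrocytes and -0.70 for meninges. With shRNA A they were 0.04, -0.05, 0.00, 0.43 and -0.60 in the same order. Summed meningeal markers came to 105, 67.5 and 122 CPM in control replicates 1, 2 and 3. They came to 53.7 to 66.5 CPM with shRNA A and 54.9 to 61.2 CPM with shRNA B. Without control replicate 3, the library with choroid plexus RNA, 1 of the 9 members (Ifih1, edgeR adjusted p = 0.0416) was called with shRNA B. With it 5 were called, although the fit without it has 1 control library less. Of all genes, 19 were called without control replicate 3, against 167 with it. Without control replicate 1 or 2, 0 of the 9 members were called, and 13 and 23 of all genes.

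**Figure D5:**
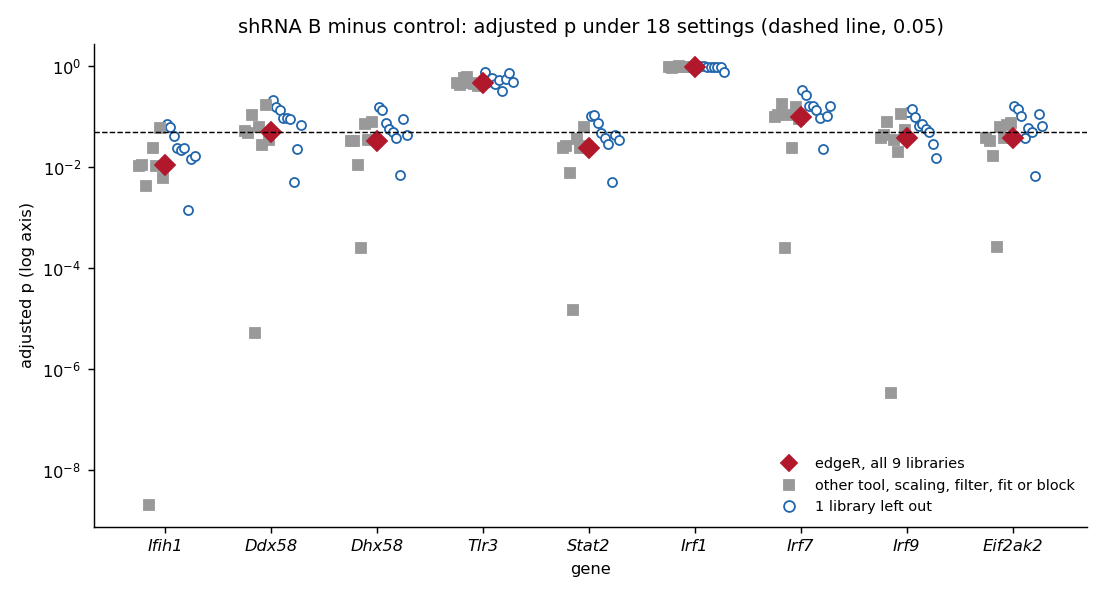
Adjusted p for shRNA B minus control of each of the 9 genes, on a log axis, in the reported fit (diamonds), in 8 other tools or settings (squares) and with each of the 9 libraries left out (circles), with a dashed line at 0.05. Ifih1 ranges from 2.06e-09 to 0.0713 and passes in 14 of the 17 alternatives; Tlr3 and Irf1 pass in none.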

How the data were processed

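RNA of 9 libraries was measured by polyA RNA-seq, 3 animals per group per the series' design. The authors deposited raw read counts per Ensembl gene, per the file headers. Tools named in the submitters' processing notes are HTSeq 0.6.1, TopHat 1.4.1, R 3.1.1, DESeq2 1.4.5 and SAMtools 0.1.19, on build mm9; the annotation is not stated in the sources used. The authors' deposited table also holds a mean normalized signal, log2 fold changes with their errors, a likelihood ratio test score, and p-values with adjusted p-values, per the file headers. All sample columns matched a label (0 without one).

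CPM were computed here from TMM-scaled library sizes. Quasi-likelihood models with robust estimation were fitted with edgeR 4.0.16 (R 4.3.3) to all 9 libraries, for the 16438 of 31804 genes kept by filterByExpr. Tests were two-sided, with Benjamini-Hochberg adjustment over these genes and a threshold of 0.05. Each shRNA and their mean were set against control, and shRNA B against shRNA A, which makes 4 contrasts. SE values were obtained by dividing the size of a log2 difference by the square root of F. Totals were 29123744 to 38189288 counts, and 1 read stood for 0.0262 to 0.0343 CPM. Floors of 3 reads cover counting error alone, because without molecular identifiers reads are not independent molecules. Within groups, libraries differed by more than counting noise (chi-square per degree of freedom 7.9 to 20.9). The fitting code was tested on simulated data. Symbols were in the table for 20478 genes, a gene name list gave 6546 more, and 4780 had none.

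The members and all gene lists were chosen with earlier results of these data known. Named were all 9 members, Camta1, list genes past the threshold in any contrast, Irf3, Mavs, Ifnar1, Ifnar2, Jak1, Tyk2 and Adar whatever their values, marker genes past the threshold with shRNA B, and the 8 genes of most similar profile, except for an item not reported here. The lymphocyte genes Cd8a, Cd8b1, Gzmb, Cd3e, Cd4 and Klrb1c were named after their values were seen. Alternatives were DESeq2 size factors, library size alone, no filter, DESeq2 1.42.0, limma-voom (limma 3.58.1), no robust estimation, only the groups compared, a replicate block, and leaving out each library. Promoter windows came from RefSeq (GRCm38.p6), matched by symbol, and exon lengths and overlaps of at least 100 bases from GENCODE M21 (GRCm38).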

Additional observations from a re-analysis of the deposited data

How the results depend on the processing

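Over 78 gene results and 1317 alternative values, 1055 kept their direction and side of the threshold, 219 lost a call, 37 gained one and 6 changed sign. The sign changed for Irf1 with shRNA B without control replicate 3 (-0.01) and without shRNA B replicate 2 (-0.076; -0.076 to 0.16 over the fits with a library left out), for Irf1 in the mean of both shRNAs without control replicate 1 (0.0084; range -0.16 to 0.0084), and for Tlr3 between the shRNAs without shRNA A replicate 3 (-0.039; range -0.039 to 0.12). It also changed for Ifnar1 with shRNA B under library size alone (0.0041) and without shRNA B replicate 3 (0.043; range -0.072 to 0.043).

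Of the 9 genes, 5 were called with shRNA B by edgeR, 7 by DESeq2 and without robust estimation, 6 under library size alone, 4 without the filter and 3 by limma-voom. With only the 2 groups in the fit 0 were called, and 0 to 7 when 1 library was left out, the lowest number without control replicate 1 or 2. With shRNA A, 0 were called in every alternative run. For the mean of both shRNAs 7 were called by DESeq2 against 0 by edgeR, and 0 to 1 with a library left out. Between the shRNAs the numbers were 5 and 0, and 0 to 3 with a library left out. The cause of these shifts was not tested, except that leaving out libraries or groups leaves fewer samples in the fit.

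Over all genes, 4 were called with shRNA A, and 9 without the filter, 43 by DESeq2, 0 by limma-voom, 2 without robust estimation, 18 with only the groups compared and 0 to 10 with a library left out. With shRNA B 167 were called, and 386 by DESeq2, 95 by limma-voom, 42 with only the groups compared and 13 to 217 with a library left out. For the mean 16 were called, and 67 without the filter, 243 by DESeq2, 31 with the replicate block and 1 to 52 with a library left out. Between the shRNAs 0 were called (1536 at an unadjusted p under 0.05), and 21 without the filter, 123 by DESeq2, 1 with the replicate block and 0 to 110 with a library left out.

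The replicate numbers are shared between groups. Of 9 correlations of the deviations of same-numbered libraries, from -0.13 to 0.27, 2 were over 0.1. Between shRNA A and shRNA B they were 0.11, 0.089 and 0.27 in replicates 1, 2 and 3. Those of either shRNA with control were all negative, from -0.13 to -0.01. Whether same-numbered libraries share a batch was not tested. With the replicate block 148 genes were called with shRNA B, among them 4 of the 9 members, and Ddx58 passed (edgeR adjusted p = 0.0347) while Irf9 and Eif2ak2 did not (0.0539 and 0.0754).

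With 3 libraries a group, few reads for Dhx58 and Irf7 in control, and 1 library far above its group, single calls near the threshold are uncertain. The strand setting of the counting is not stated in the sources used. Reads on opposite strands and of family members were not separated here, and cell type changes were measured only through markers.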
